A study of Mus musculus with 19 samples.

Results

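The mouse serum amyloid A genes *Saa1*, *Saa2*, *Saa3* and *Saa4* were examined in liver RNA, library by library. They are 4 of the 31053 genes in the deposited count table, and all 4 passed the filter on low counts. The members were chosen by family name and for their levels in the 3 groups of livers, which were known beforehand. Their levels and the differences between groups are therefore given as a description, without a test.

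All livers were from male C57BL/6 mice (strain label C57BL6J). The labels give an age of 6 to 8 weeks, which cannot be the age of the TAA-treated mice when livers were taken, given the weeks of treatment below. The PBS group (5 libraries) received vehicle. The TAA_GFP group (7 libraries) received thioacetamide (TAA), a hepatotoxin that induces fibrosis, in rising doses over 12 weeks, and at week 10 an injection of AAV8 TBG eGFP, an adeno-associated virus vector with enhanced green fluorescent protein. The TAA_miR group (7 libraries) received the same TAA and, at week 10, a combination of 2 vectors, AAV8 TBG miR-34b with AAV8 TBG mir-34c. In both TAA groups, livers were taken 4 weeks after the injection. TBG is a promoter active in hepatocytes, so the vectors express their cargo mainly in these cells. TAA_miR against TAA_GFP compares vectors of miR-34b/c with a vector of eGFP in TAA-treated liver. These groups thus also differ in eGFP and in the number of vectors given, which cannot be told apart from miR-34b/c. The labels name neither TAA nor a vector for PBS mice, so in both comparisons with PBS the effects of TAA and vector cannot be told apart.

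Serum amyloid A proteins are small apolipoproteins of the acute phase response. In mouse liver, IL-6, IL-1 and TNF released during inflammation act on hepatocytes through STAT3, NF-kB and C/EBP factors and induce *Saa1* and *Saa2*, whose products circulate on high-density lipoprotein (HDL) and can deposit as amyloid when they stay high. *Saa3* is an inducible member that is also made outside hepatocytes, for example in macrophages and adipose tissue. *Saa4* is the constitutive member, made by the liver at rest.

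The members lie in 1 cluster of 42.3 kb on chromosome 7 (GENCODE M21 annotation of GRCm38, the assembly also called mm10, which the submitters name). *Saa3* (ENSMUSG00000040026, chr7:46711998-46715700), *Saa4* (ENSMUSG00000040017, chr7:46727998-46732603) and *Saa1* (ENSMUSG00000074115, chr7:46740497-46742980) are on the minus strand. *Saa2* (ENSMUSG00000057465, chr7:46751790-46754313) is on the plus strand and starts 8.81 kb from the start of *Saa1*, so that this pair is transcribed in opposite directions. The first annotated transcript of each member has 4 exons, and no other annotated gene overlaps a member. In older nomenclature, the names *Saa1* and *Saa2* are exchanged, and the names used here follow the Ensembl identifiers.

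The promoter windows, from 250 bases before to 50 bases after each RefSeq start (GRCm38.p6), are shown because *Saa1* and *Saa2* varied together, while *Saa3* and *Saa4* each had a pattern of their own. Capitals mark matches to a C/EBP-like motif (TTGCNNAA) or an NF-kB-like motif (GG, then 3 bases of any kind, then TTTCC) on either strand, and each sequence is written in the direction of transcription.
*Saa1*: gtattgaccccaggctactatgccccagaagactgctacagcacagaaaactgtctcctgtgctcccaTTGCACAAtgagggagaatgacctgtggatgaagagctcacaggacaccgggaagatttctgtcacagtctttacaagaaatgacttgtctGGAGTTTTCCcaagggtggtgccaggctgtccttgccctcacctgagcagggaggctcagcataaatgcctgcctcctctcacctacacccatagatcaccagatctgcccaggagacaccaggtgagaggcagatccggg
*Saa2*: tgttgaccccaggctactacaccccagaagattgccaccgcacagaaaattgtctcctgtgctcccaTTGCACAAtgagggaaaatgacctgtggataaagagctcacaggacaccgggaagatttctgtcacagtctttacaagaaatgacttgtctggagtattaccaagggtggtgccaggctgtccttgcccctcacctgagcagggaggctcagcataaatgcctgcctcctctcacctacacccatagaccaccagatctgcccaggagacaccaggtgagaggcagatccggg
*Saa3*: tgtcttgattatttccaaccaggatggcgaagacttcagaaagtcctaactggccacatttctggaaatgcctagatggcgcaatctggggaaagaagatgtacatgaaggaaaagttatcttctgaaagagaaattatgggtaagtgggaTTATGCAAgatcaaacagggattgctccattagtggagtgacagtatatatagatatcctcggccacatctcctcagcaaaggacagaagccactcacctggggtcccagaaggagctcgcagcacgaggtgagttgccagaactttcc
*Saa4*: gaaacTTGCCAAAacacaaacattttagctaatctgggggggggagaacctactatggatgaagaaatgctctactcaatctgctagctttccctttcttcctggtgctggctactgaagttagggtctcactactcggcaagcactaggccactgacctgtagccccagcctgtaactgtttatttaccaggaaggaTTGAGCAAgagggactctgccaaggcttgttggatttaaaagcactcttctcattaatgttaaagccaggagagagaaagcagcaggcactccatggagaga

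These windows lie at chr7:46742931-46743230 on the minus strand for *Saa1*, chr7:46751583-46751882 on the plus strand for *Saa2*, chr7:46715627-46715926 on the minus strand for *Saa3* and chr7:46732554-46732853 on the minus strand for *Saa4*. The *Saa1* and *Saa2* windows were 95.3% identical, and every other pair of windows was 48.4% to 54.2% identical. The C/EBP-like motif was present in all 4 windows and in 10.8% of 32851 RefSeq promoter windows of this length. It lay 182 to 175 bases upstream of the start in *Saa1*, 183 to 176 bases upstream in *Saa2*, 99 to 92 bases upstream in *Saa3* (opposite strand), and at 245 to 238 and 52 to 45 bases upstream in *Saa4*, the latter on the opposite strand. The NF-kB-like motif was in the *Saa1* window only, 91 to 82 bases upstream, and in 5.48% of all windows. A STAT-like motif (TTCNNNGAA), present in 8.30% of all windows, was in none of the 4, which says only that these letters are not in these windows. No matches overlapped. The motifs were picked with the sequences in view, and a match is a description of letters, not a binding site.

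The 2 most alike members, *Saa1* and *Saa2*, can be told apart by these reads. Their first coding transcripts were 93.9% identical. Of the 510 stretches of 100 bases (the read length) in *Saa1* and the 507 in *Saa2*, none was shared with another member, and 24 of each came within 2 mismatches. In the last 300 bases, where reads of this protocol fall, the closest stretches differed at 3 positions. *Saa3* and *Saa4* differed from the other members at no fewer than 5 and 24 positions. Only retained-intron transcripts of *Saa1* and *Saa2* had identical stretches, 230 in each.

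Total counts were 2214073 to 5208405 per library. Counts, compared over the 8623 to 9990 genes per pair with a mean count of at least 10, were closer in 6 pairs of libraries than in the other 46 pairs formed within a group, with a biological coefficient of variation (spread beyond counting noise) of 0.0812 to 0.171 against 0.215 to 0.480. The close pairs were PBS 1 and 4, PBS 3 and 5, TAA_GFP 1 and 2, TAA_miR 1 and 2, TAA_miR 3 and 4, and TAA_miR 5 and 7. The labels call each library a biological replicate, and what the libraries of a pair share was not tested. A pair may hold libraries of 1 animal, so n below counts libraries, and p-values over them may be too small. Except for correlations over all libraries, values of the members that rest on such a pair are given below with and without it. Main changes in the calls of the lists are given in the same way. With each pair taken as 1 sample, 3 PBS, 6 TAA_GFP and 4 TAA_miR samples remain. Summed hepatocyte markers overlapped between groups, at 51251 to 72625 CPM in PBS, 59463 to 72621 CPM in TAA_GFP and 44595 to 81439 CPM in TAA_miR, much of it from *Alb*, and the tissue was liver by these markers. Of the 10 hepatocyte markers, *Cyp3a11* (log2 fold change 1.06) and *Serpina1c* (0.64) were called higher in TAA_GFP than in PBS, and in TAA_miR against PBS *Serpina1c* (0.91) was higher and *Cps1* (-0.90) and *Cyp2e1* (-0.63) were lower. With close pairs summed, 0 were called by edgeR in either comparison (3 at an unadjusted p under 0.05 in each), and likewise in TAA_miR against PBS without PBS 1 and 4 (3 at an unadjusted p under 0.05). Between TAA_miR and TAA_GFP 0 were called by edgeR (1 at an unadjusted p under 0.05, 0 by DESeq2 and 2 by limma-voom), but without TAA_miR 1 and 2 *Cps1* and *Cyp3a11* were called lower in TAA_miR.

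Levels are in CPM, counts scaled to a library total made comparable between libraries by TMM (trimmed mean of M-values). Transcripts were counted near their 3′ end, so levels of different members were compared in CPM without a division by length. Together, the 4 genes took a median of 0.149% of all counts in PBS (0.145% to 1.67%), 0.0660% in TAA_GFP (0.0476% to 0.966%) and 3.41% in TAA_miR (0.659% to 5.45%). The single libraries are shown in the plot of CPM by library.

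**Figure D1:**
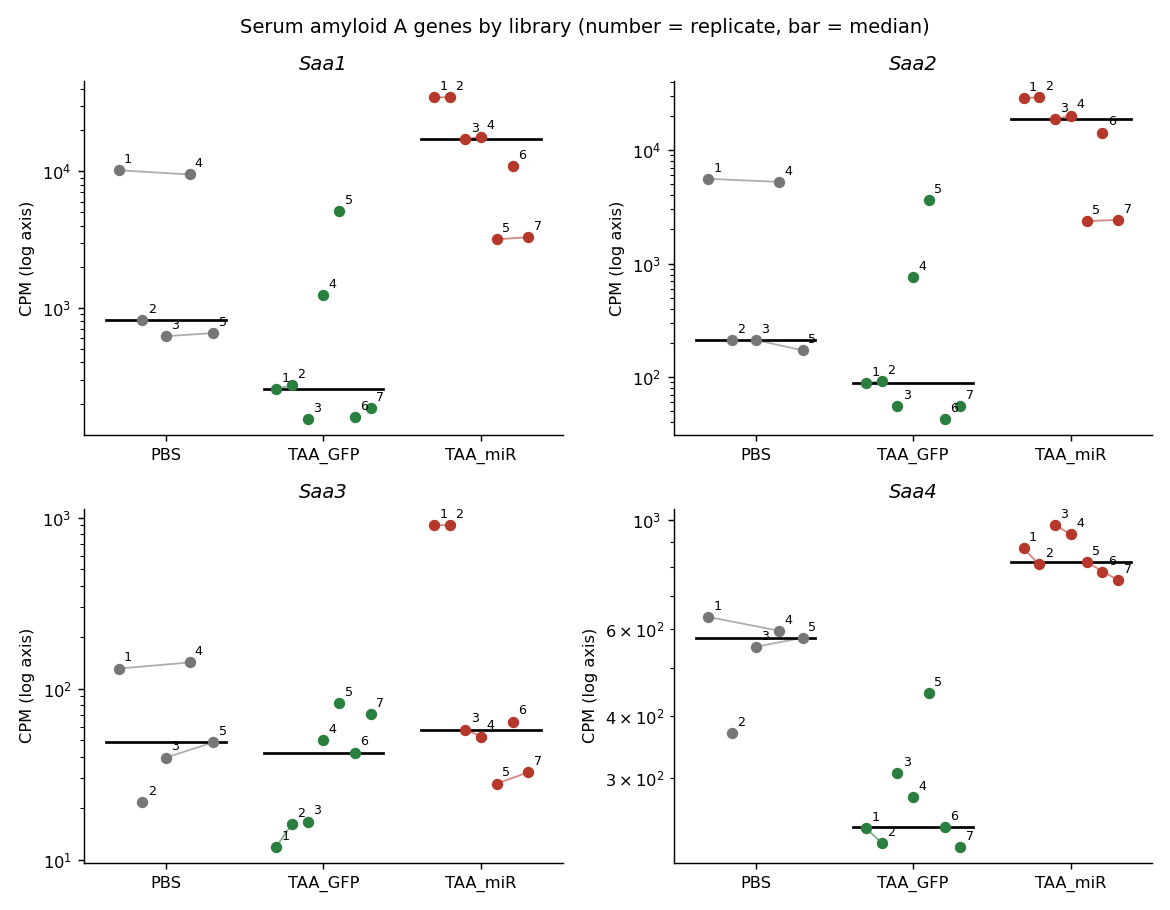
CPM of each gene (log axis) in each library, by group. Numbers are replicates, thin lines join close pairs of libraries and bars are group medians. *Saa4* of every TAA_miR library (754 to 976 CPM) lies above both other groups, whereas *Saa1*, *Saa2* and *Saa3* overlap between groups. The share of all genes without such overlap was not counted.

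*Saa1*, the first of the inducible hepatocyte genes, was at 10174, 812, 622, 9479 and 655 CPM in PBS libraries 1 to 5. In TAA_GFP it ranged from 154 to 5127 CPM with a median of 256 CPM, and libraries 5 (5127 CPM) and 4 (1247 CPM) were the highest. In TAA_miR it ranged from 3182 to 34865 CPM with a median of 17107 CPM. PBS 1 and 4, a close pair, were thus more than 10 times as high as each other PBS library. Of the 7 TAA_miR libraries, 5 were above every TAA_GFP and every PBS library, and the close pair TAA_miR 5 and 7 (3182 and 3296 CPM) lay within the range of both groups. These values rest on 397 to 102118 counts per library.

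*Saa2*, its divergently transcribed neighbour, varied over a wider range, with the same libraries high. It was at 5583, 213, 212, 5248 and 172 CPM in PBS libraries 1 to 5. In TAA_GFP it ranged from 42.6 to 3610 CPM (median 88.4 CPM), with libraries 5 and 4 (763 CPM) again the highest. In TAA_miR it ranged from 2363 to 29295 CPM (median 18735 CPM), and 5 of 7 libraries were above every library of the other groups. The highest library exceeded the lowest of its group by 32.5-fold in PBS and 84.8-fold in TAA_GFP, against 16.3-fold and 33.3-fold for *Saa1*.

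The ratio of group medians between TAA_miR and TAA_GFP was 66.8 for *Saa1* and 212 for *Saa2*, and the ratio of group means was 16.5 and 24.6. The fitted log2 fold change was 4.03 (SE 0.87) for *Saa1* and 4.61 (SE 1.04) for *Saa2*. Without any 1 close pair, it was 3.29 to 4.44 for *Saa1* and 4.09 to 5.03 for *Saa2*. Both genes were thus higher in TAA_miR than in TAA_GFP whichever pair was left out. Leaving out 1 library reached higher values, which are given under the dependence on processing.

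Against PBS, the log2 fold change in TAA_miR was 2.0 (SE 0.79) for *Saa1* and 2.85 (SE 0.93) for *Saa2*. Without any 1 close pair, it was 1.26 to 4.65 for *Saa1* and 2.17 to 6.39 for *Saa2*, with the highest value of both without PBS 1 and 4. Between TAA_GFP and PBS, the log2 fold change was -2.03 (SE 0.87) for *Saa1* and -1.75 (SE 1.05) for *Saa2*, with 5 of 7 TAA_GFP libraries below every PBS library. Without PBS 1 and 4, the fitted values became 0.60 and 1.76. The sign of the difference between TAA_GFP and PBS in fitted values of *Saa1* and *Saa2* therefore turned on this close pair, while group medians were lower in TAA_GFP (256 against 812 CPM for *Saa1*, 88.4 against 213 CPM for *Saa2*). Without this pair, only TAA_GFP 4 and 5 lay above the remaining PBS libraries in *Saa1* and *Saa2*. A fit that also left out these TAA_GFP libraries was not run.

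*Saa3*, the inducible member also made outside hepatocytes, was the least abundant member by group median in every group. It was at 131, 21.7, 39.5, 142 and 48.5 CPM in PBS libraries 1 to 5 and at 11.9 to 82.0 CPM (median 42.3 CPM) in TAA_GFP. In TAA_miR, libraries 1 and 2 were at 907 and 900 CPM and the other 5 libraries at 27.9 to 64.0 CPM. The latter lay within the ranges of TAA_GFP and PBS, so that only 1 close pair of TAA_miR stood above the other groups. The log2 fold change of TAA_miR against TAA_GFP was 2.80 (SE 0.81) with all libraries and 0.16 without TAA_miR 1 and 2. Against PBS it was 1.93 (SE 0.89), and -0.72 without this pair. TAA_GFP differed from PBS by a log2 fold change of -0.88 (SE 0.46), and by 0.19 without PBS 1 and 4.

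*Saa4*, the constitutive member, varied least. It was at 635, 370, 552, 595 and 576 CPM in PBS libraries 1 to 5, at 217 to 446 CPM (median 238 CPM) in TAA_GFP and at 754 to 976 CPM (median 820 CPM) in TAA_miR. All 7 TAA_miR libraries were above all libraries of both other groups, and 6 of 7 TAA_GFP libraries were below all PBS libraries, TAA_GFP 5 being the exception. How many of all genes part the groups as far was not counted, for this or any other member. The mean was 546 ± 103 CPM (SD, n = 5) in PBS, 277 ± 80.7 CPM (SD, n = 7) in TAA_GFP and 850 ± 80.9 CPM (SD, n = 7) in TAA_miR. The highest library was 1.72-fold, 2.05-fold and 1.29-fold the lowest of its group.

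The log2 fold change of *Saa4* was 1.60 (SE 0.16) for TAA_miR against TAA_GFP, 0.64 (SE 0.15) for TAA_miR against PBS and -0.97 (SE 0.19) for TAA_GFP against PBS. Its sign was the same under every alternative, and without any 1 close pair the values were 1.51 to 1.65, 0.58 to 0.77 and -0.94 to -0.85. With all libraries, these fitted differences were smaller in size than those of *Saa1* and *Saa2*, but the differences in mean CPM exceeded the SD within each group. That SD is over libraries and may be too small because of close pairs, so this is a description only. For TAA_GFP against PBS, the order of *Saa1* and *Saa4* rests on PBS 1 and 4, without which *Saa1* was at 0.60 and *Saa4* at -0.85. The ratio of group medians in that comparison was 0.414 for *Saa4* and 0.415 for *Saa2*. In RNA of whole liver, more transcript per cell and more cells that make it cannot be told apart.

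**Figure D2:**
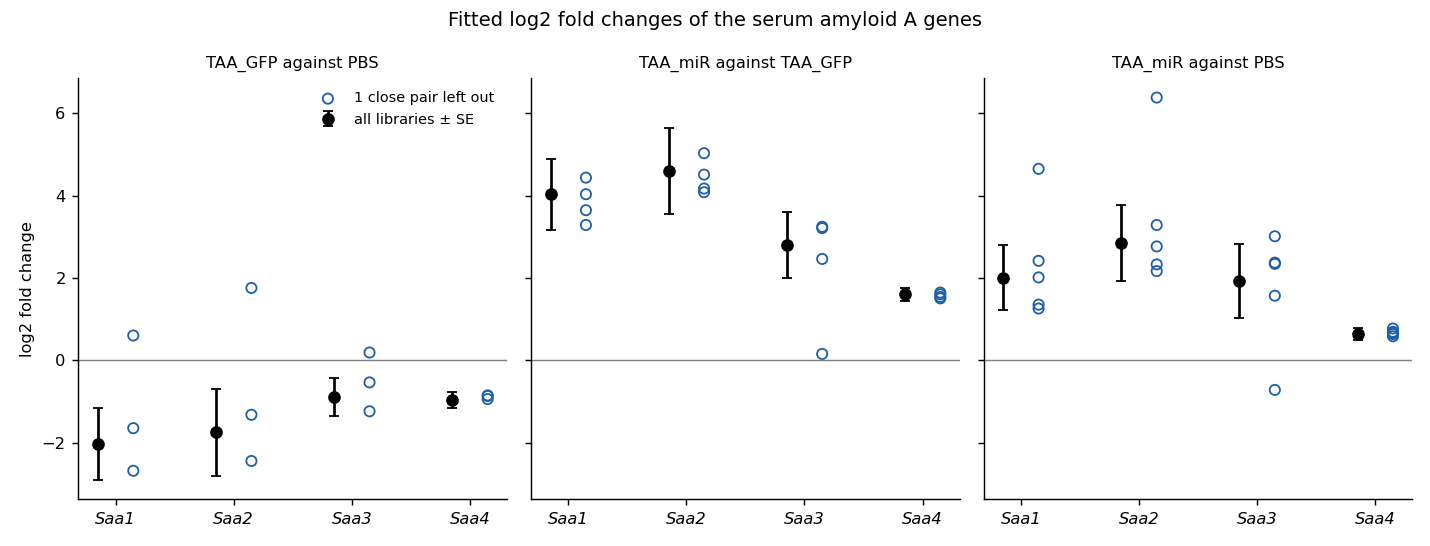
Fitted log2 fold change (vertical axis) of each gene in the 3 comparisons. Filled points are values of all libraries with their SE, open circles values without 1 close pair. *Saa4* stays within a narrow band, *Saa1*, *Saa2* and *Saa3* cross 0 in TAA_GFP against PBS, and *Saa3* falls to 0.16 in TAA_miR against TAA_GFP without TAA_miR 1 and 2.

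The order of the members changed with the group. By medians, the order in PBS was *Saa1* (812 CPM), *Saa4* (576 CPM), *Saa2* (213 CPM) and *Saa3* (48.5 CPM). It was the same in TAA_GFP, where *Saa1* (256 CPM) and *Saa4* (238 CPM) were close, and *Saa4* was the higher of both in 3 of 7 libraries. In TAA_miR, *Saa2* (18735 CPM) and *Saa1* (17107 CPM) were far above *Saa4* (820 CPM), and *Saa2* exceeded *Saa1* in libraries 3, 4 and 6. The constitutive *Saa4* made up 3.84% to 39.7% of serum amyloid A counts in PBS, 4.81% to 57.5% in TAA_GFP and 1.23% to 12.8% in TAA_miR. *Saa3* was at most 13.4% of these counts, in TAA_GFP 7.

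The balance between the nearly identical *Saa1* and *Saa2* differed between livers. *Saa2* was 20.8% to 35.6% of the counts of both genes in PBS (median 25.4%), 21.1% to 41.3% in TAA_GFP (median 25.7%) and 42.4% to 56.6% in TAA_miR (median 45.8%). All TAA_miR libraries were above all libraries of the other groups, by as little as 42.4% (95% Wilson interval 41.7% to 43.2%) in TAA_miR 7 against 41.3% (40.8% to 41.8%) in TAA_GFP 5, intervals that overlap. Within TAA_GFP, the share was highest in library 5 and next in library 4, where *Saa1* was also highest, and in PBS it was 35.4% and 35.6% in libraries 1 and 4 against 20.8% to 25.4% in the others. TAA_miR did not follow that order, as libraries 1 and 2, with the highest *Saa1*, had 45.1% and 45.8% and library 6 had 56.6%. The intervals cover counting error only.

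**Figure D3:**
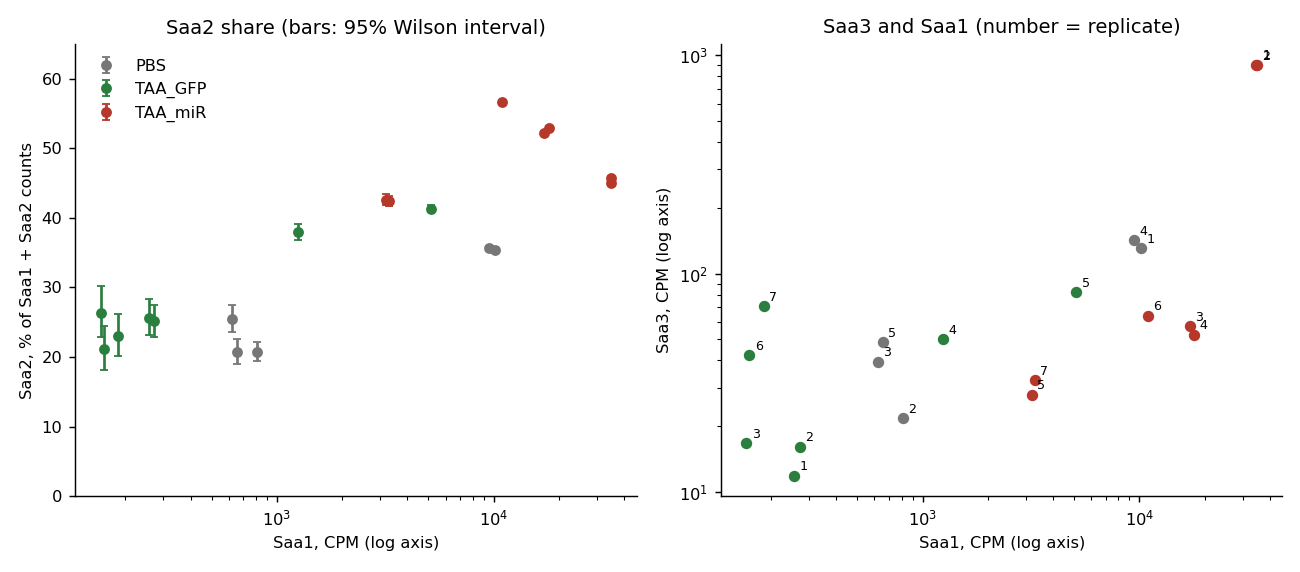
Left, *Saa2* as a percentage of *Saa1* and *Saa2* counts (vertical axis, with 95% Wilson interval) against *Saa1* in CPM (log axis). Right, *Saa3* against *Saa1*, both in CPM on log axes, with replicate numbers. The *Saa2* share runs from 20.8% to 56.6%, and TAA_miR 1 and 2 stand alone in *Saa3*.

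Variation among libraries of 1 group was described in TAA_GFP, where 7 libraries were available. The members' values in these libraries were known when the members were chosen, so no test was applied. Log2 CPM of *Saa1* and *Saa2* varied together, with Pearson's r = 0.998 and Spearman's rho = 0.964. Without the 2 libraries farthest from the *Saa1* median, r was 0.945. *Saa4* gave r = 0.792 with *Saa1* and r = 0.799 with *Saa2*, with rho of 0.214 and 0.286. Without the same number of farthest libraries, r fell to -0.56 and -0.28, so the relation of *Saa4* to both rests on those libraries. *Saa3* gave r = 0.543 with *Saa1* (rho = 0.357), r = 0.521 with *Saa2* (rho = 0.321) and r = 0.384 with *Saa4* (rho = 0.321). Without the 2 libraries farthest from the *Saa1* median, r of *Saa3* was -0.52 with *Saa1* and -0.70 with *Saa2*. For *Saa3* and *Saa4*, r was 0.12 without the 2 libraries farthest from the *Saa3* median, which are TAA_GFP 1 and 2. TAA_GFP 1 and 2 are a close pair and leave 6 samples when summed, with an r of *Saa1* and *Saa2* of 0.998. No correlation was computed in TAA_miR, whose close pairs leave 4 samples, or in PBS.

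As a description over all 19 libraries, which share the groups, r was 0.993 between *Saa1* and *Saa2*, 0.867 between *Saa1* and *Saa4*, 0.721 between *Saa1* and *Saa3* and 0.506 between *Saa3* and *Saa4*. Among 9924 other genes, the levels most like *Saa1* were those of *Orm2* (r = 0.98), *Lcn2* (0.96), *Fgl1* (0.96), *Prtn3* (0.96) and *Itih4* (0.95). For *Saa2* they were *Lcn2* (0.97), *Orm2* (0.97), *Itih4* (0.95), *Prtn3* (0.94) and *Itih3* (0.94). *Orm2* encodes an α1-acid glycoprotein, *Lcn2* lipocalin, a siderophore-binding protein, and *Itih3* and *Itih4* heavy chains of inter-α-trypsin inhibitor, and each is known as an acute phase product of liver. *Lcn2* is also a granule protein of neutrophils, and *Prtn3* encodes proteinase 3, known as a neutrophil granule protease. After group means were subtracted, *Orm2* (0.95) and *Lcn2* (0.93) still led for *Saa1*, and *Lcn2* (0.94) and *Orm2* (0.93) for *Saa2*, with *Prtn3* next in both (0.90 and 0.89).

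The genes most like *Saa3* were others. Over all libraries they were *Bsg* (r = 0.92), *S100a6* (0.91), *C4bp* (0.90), *Ifitm1* (0.89) and *Ctsl* (0.87), and after group means were subtracted *Fh1* (0.94), *C4bp* (0.92), *Hacl1* (0.92), *Aass* (0.92) and *S100a6* (0.91). TAA_miR 1 and 2 weigh heavily in these values, which are given only with this pair included. For *Saa4* they were *Prtn3* (0.91), *Mt1* (0.91), *B3galt1* (0.91), *Mat1a* (0.88) and *Cxcl14* (0.88). After group means were subtracted, no gene reached the values seen for the other members, *Lbp*, the lipopolysaccharide-binding protein, being highest at 0.78, followed by *Npr1* (0.71), *Mat2a* (0.71), *Tmem62* (0.70) and *Zfp65* (0.70).

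Genes upstream of and around the members were taken from lists and tested with edgeR's quasi-likelihood test at a Benjamini-Hochberg adjusted p of 0.05 over all genes tested. Of 9252 genes tested for TAA_miR against TAA_GFP, 1.95% were called higher and 1.42% lower. For TAA_GFP against PBS these were 7.54% and 5.19% of 9522 genes, and for TAA_miR against PBS 12.2% and 9.75% of 9290 genes. The median log2 fold change over all genes tested was -0.01, -0.01 and 0.02. The comparisons share groups, so their values are given side by side and are not independent. The lists were chosen with results of these data known.

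The cytokines that induce serum amyloid A were hardly counted in liver RNA. *Il6* had 1 count in all libraries together, *Osm* and *Il22* had none, and *Tnf* had 3 counts in PBS, 1 in TAA_miR and none in TAA_GFP. *Il1b* had 4 to 33 counts per library, at a median of 5.81 CPM in PBS, 5.03 CPM in TAA_GFP and 5.88 CPM in TAA_miR. The libraries thus show little of these ligands, at this depth, in any group.

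Of the 11 tested genes of IL-6 family and STAT3 signal, 0 were called between TAA_miR and TAA_GFP by edgeR (5 at an unadjusted p under 0.05, 1 called by DESeq2 and 1 by limma-voom), with a median log2 fold change of 0.32. Against PBS, 6 were called higher in TAA_miR, among them *Stat3*, the transcription factor of this signal (log2 fold change 1.26, SE 0.17, adjusted p = 0.000164), *Socs3*, its feedback inhibitor (1.55, SE 0.35, adjusted p = 0.0066), and *Il6st*, the shared receptor subunit (0.76, SE 0.22, adjusted p = 0.0238), and *Lifr* was lower (-0.86). Of these 7 calls, *Stat3* and *Socs3* remained without PBS 1 and 4, and *Stat3* alone with close pairs summed. *Socs3* (1.11), *Bcl3* (1.34) and the kinase gene *Pim1* (0.86) were also called higher in TAA_GFP against PBS, where *Saa1* and *Saa2* medians were lowest. Without PBS 1 and 4, 0 of the 11 genes were called in this comparison by edgeR (3 at an unadjusted p under 0.05), and *Bcl3* alone remained without PBS 3 and 5, without TAA_GFP 1 and 2 or with close pairs summed. *Stat3* was at 73.8 to 456 CPM in TAA_GFP and at 318 to 508 CPM in TAA_miR.

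Of 16 tested genes of IL-1, TNF and NF-kB signal, 3 rose and 2 fell in TAA_miR against TAA_GFP. The receptor genes *Il1r1* (log2 fold change 1.46, SE 0.30) and *Tnfrsf1a* (0.78, SE 0.15) and the IL-1 receptor antagonist *Il1rn* (1.61, SE 0.41) were higher. Counts of *Il1rn* were low, at 2 to 28 per library in TAA_GFP and 9 to 99 in TAA_miR. *Nfkbia*, the NF-kB inhibitor that is itself a target of NF-kB (-0.77, SE 0.15), and *Il1rap*, the accessory chain of the IL-1 receptor (-0.75, SE 0.19), were lower. Without TAA_GFP 1 and 2, *Il1r1* and *Tnfrsf1a* remained, without TAA_miR 3 and 4 *Il1r1* and *Nfkbia*, and with close pairs summed *Il1r1* alone. In TAA_GFP against PBS, *Tnfrsf1b* (1.39) and *Nfkbia* (0.72) were higher and *Il18* (-0.91) was lower, and *Tnfrsf1b* alone remained without PBS 1 and 4 or with close pairs summed.

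Of 10 tested factors known to bind serum amyloid A promoters, 0 were called between TAA_miR and TAA_GFP by edgeR (0 at an unadjusted p under 0.05, 0 by DESeq2 and 0 by limma-voom), and their median log2 fold change was -0.01. *Cebpb*, a C/EBP factor of the acute phase, had a value of 0.18 (SE 0.16, adjusted p = 0.668) and *Cebpd* one of 0.31 (SE 0.28, adjusted p = 0.674). Between TAA_GFP and PBS, *Hnf4a* (0.86), a regulator of hepatocyte genes, and *Maz* (1.36), also known as SAF-1, were higher and *Cebpd* (-0.69) was lower. By edgeR, 0 of the 10 were called without PBS 1 and 4 (6 at an unadjusted p under 0.05), *Hnf4a* and *Maz* remained without PBS 3 and 5 or without TAA_GFP 1 and 2, and *Maz* alone with close pairs summed.

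Of 18 tested genes for HDL proteins and for receptors of serum amyloid A, 1 was called in TAA_miR against TAA_GFP, and this was *Pon1*, the HDL-bound paraoxonase (-0.72, SE 0.16, adjusted p = 0.0129). This call was lost by edgeR without TAA_miR 3 and 4 and with close pairs summed (5 and 6 genes of the list at an unadjusted p under 0.05). *Apoa1*, the main HDL protein that serum amyloid A can displace, had a value of 0.28 (SE 0.15, adjusted p = 0.398). In TAA_GFP against PBS, the scavenger receptor *Cd36* (1.60) and *Apoa4* (1.51) were higher and *Apom* (-0.77) was lower. Of these, *Cd36* alone remained without PBS 1 and 4, without PBS 3 and 5 or with close pairs summed.

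Of 23 other positive acute phase genes tested, 21 were called higher in TAA_miR than in TAA_GFP and 0 lower, with a median log2 fold change of 1.56. The highest were *Orm2* (5.25, SE 0.88), *Orm3* (4.65, SE 0.77), *Lcn2* (4.06, SE 0.85) and *Apcs* (3.42, SE 0.55), which encodes serum amyloid P component, the pentraxin that binds amyloid. In TAA_GFP, *Orm2* had 10 to 411 and *Lcn2* 5 to 834 counts per library, so some libraries were near the filter's minimum count. *Hp* for haptoglobin (1.56, SE 0.35) and the fibrinogen chain *Fgb* (1.35, SE 0.21) were lower on this scale, and *Hpx* (1.17, adjusted p = 0.0786) and *Hamp* (-0.10, adjusted p = 0.88) were not called. Without each close pair in turn, 13 (without TAA_GFP 1 and 2) to 22 genes were called, and 11 with close pairs summed. With library sizes alone in place of TMM, the median of all genes shifted to -0.20, the median of this list was 1.32 and 20 genes were called, all higher.

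In TAA_GFP against PBS, 5 of these 23 genes were called lower (*Orm3* -2.86, *Orm2* -2.55, *Apcs* -2.12, *Orm1* -1.20 and *Serpina3m* -0.92) and 0 higher, with a list median of -0.50. *Orm2* was at 282 and 280 CPM in PBS 1 and 4 and at 14.1 to 29.3 CPM in the other PBS libraries, the split seen for *Saa1*. Without PBS 1 and 4, which leaves 3 PBS libraries, 0 of the list were called by edgeR (3 at an unadjusted p under 0.05), and without TAA_GFP 1 and 2 *Apcs* and *Orm3* remained, with close pairs summed *Apcs* alone. In TAA_miR against PBS, 15 were called higher and 0 lower, with a median of 1.25. With close pairs summed, 8 of these calls remained, and 10 without PBS 3 and 5 or without TAA_miR 3 and 4. Of 9 tested negative acute phase genes, such as *Alb* and *Ttr*, 0 were called between TAA_miR and TAA_GFP by edgeR (3 at an unadjusted p under 0.05, 2 by DESeq2 and 1 by limma-voom).

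**Figure D4:**
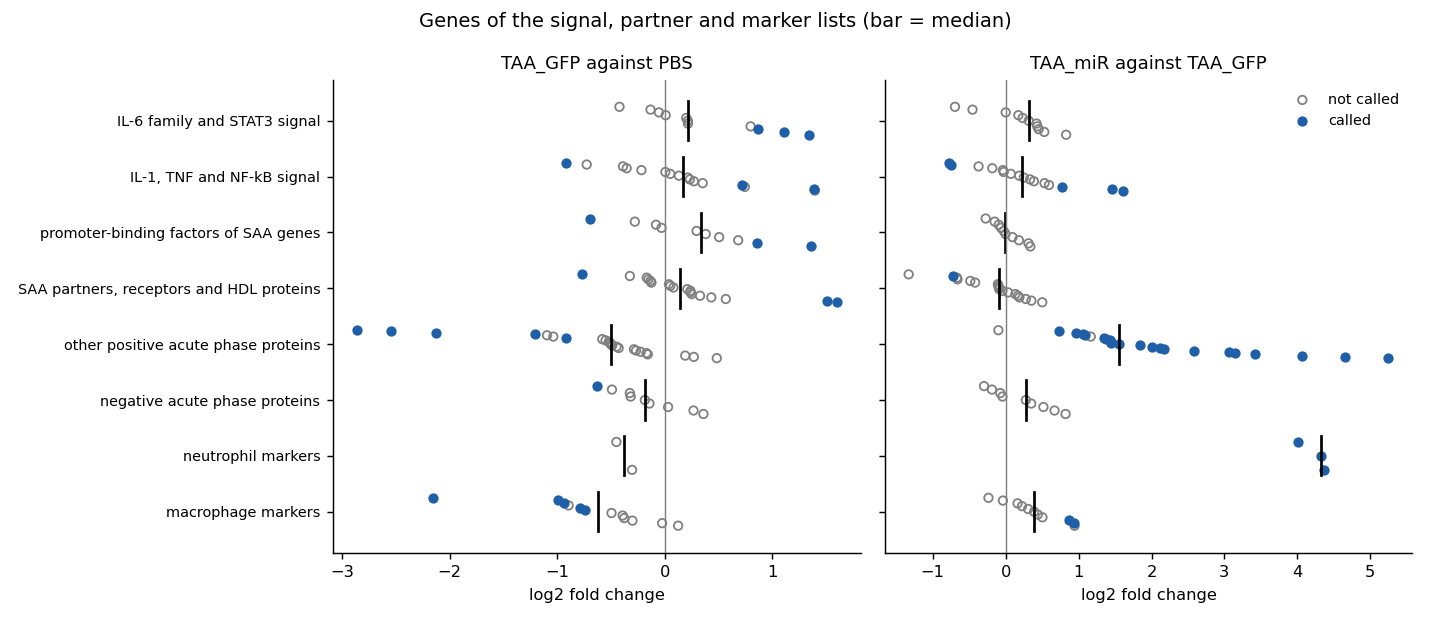
Log2 fold change (horizontal axis) of each tested gene by list, for TAA_GFP against PBS (left) and TAA_miR against TAA_GFP (right). Filled points were called at adjusted p 0.05, open points were not, and bars are medians. In the right panel, 21 of 23 acute phase genes are called and lie above 0.

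Markers of other cells moved with some of these values. The summed level of 11 neutrophil markers was 17.7 to 82.6 CPM in PBS, 15.6 to 74.6 CPM in TAA_GFP and 71.1 to 2068 CPM in TAA_miR, with *Ly6g* at 0 in PBS. Most of this sum came from *S100a8* and *S100a9*. Of the 11 markers, 3 passed the filter on low counts for TAA_miR against TAA_GFP. *S100a8* (4.36) and *S100a9* (4.32) were called higher. *Retnlg*, with 0 to 18 counts per library in TAA_GFP and 5 to 169 in TAA_miR, passed the filter only through TAA_miR, so its call supports nothing. *S100a8* was at 820 and 855 CPM in TAA_miR 1 and 2, the libraries with high *Saa3*, and at 21.1 to 203 CPM in the other TAA_miR libraries. Without TAA_miR 1 and 2, *S100a8* and *S100a9* were again called in this comparison. *S100a8* was at 6.65 to 34.4 CPM in PBS and at 7.59 to 25.4 CPM in TAA_GFP. Within PBS, *S100a8* was at 34.2 and 34.4 CPM in libraries 1 and 4 and at 6.65 to 7.91 CPM in the others, and within TAA_miR it was lowest in libraries 5 and 7 (21.1 and 25.1 CPM), the pairs that were highest and lowest of their group in *Saa1* and *Saa2*, respectively. Within TAA_GFP the order differed, as *S100a8* was highest in library 6 (25.4 CPM), where *Saa2* was lowest (42.6 CPM), and was at 24.1 CPM in library 5 and 14.4 CPM in library 4, the libraries highest in *Saa1* and *Saa2*. The part of neutrophils in the levels of *Saa1*, *Saa2* and *Saa3* was not tested.

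Macrophage markers, which matter for *Saa3*, summed to 534 to 1017 CPM in PBS, 444 to 723 CPM in TAA_GFP and 652 to 896 CPM in TAA_miR, ranges that overlap. *Cd5l* (0.86) and *C1qb* (0.94) were called among 11 tested in TAA_miR against TAA_GFP, and with close pairs summed 0 were called by edgeR (4 at an unadjusted p under 0.05). In TAA_GFP against PBS, 5 of 12 were lower, and of these *Timd4* alone (-2.15) remained without PBS 1 and 4, without PBS 3 and 5, without TAA_GFP 1 and 2 or with close pairs summed. Adipocyte markers, the other known source of *Saa3*, summed to 12.9 to 31.2 CPM in PBS, 12.8 to 37.0 CPM in TAA_GFP and 8.37 to 46.1 CPM in TAA_miR. *Lep* and *Plin1* were at 0 in every group and *Adipoq* at 0 in PBS, while *Cidec* had 7 to 15 counts per library in TAA_GFP and 0 to 3 in PBS and in TAA_miR. Of 9 stellate cell and fibroblast genes tested for TAA_GFP against PBS, *Col1a1* (2.43), *Col1a2* (1.07) and *Lum* (0.93) were higher and *Rgs5* (-0.67) was lower, and *Col1a1* alone remained in every close-pair alternative. *Pdgfrb* (1.98) was also called higher. With 0 to 7 counts per library in PBS and 9 to 32 in TAA_GFP, it passed the filter only through TAA_GFP, so its call supports nothing. Of 8 tested between the TAA groups, *Col1a1* (-1.93) and *Col3a1* (-1.46) were lower in TAA_miR than in TAA_GFP, both also with close pairs summed, and without TAA_miR 1 and 2 *Dcn* and *Lum* were called lower as well. The summed level of these markers, most of it from *Dcn*, was 393 to 632 CPM in PBS, 418 to 561 CPM in TAA_GFP and 274 to 585 CPM in TAA_miR. Cholangiocyte markers summed to 18.6 to 40.9 CPM in PBS, 53.6 to 97.3 CPM in TAA_GFP and 49.9 to 119 CPM in TAA_miR.

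Within 200 kb of a member, 19 other genes are annotated, 10 of which are in the table and 6 of which were tested. Between TAA_miR and TAA_GFP, 0 were called by edgeR (1 at an unadjusted p under 0.05, 1 by DESeq2 and 0 by limma-voom). *Saal1*, the nearest tested gene beyond *Saa3*, had a log2 fold change of 0.37 (SE 0.27), *Hps5*, with *Gtf2h1* the nearest beyond *Saa2*, one of -0.47 (SE 0.30) and *Ldha*, for a lactate dehydrogenase subunit, one of 0.36 (SE 0.13). *Sergef* (0.44), *Gtf2h1* (0.22) and *Tsg101* (-0.03) completed the 6. *Tph1*, *Ldhc* and *Gm15700* had no count, and *Uevld* had at most 17 counts in a library. In TAA_GFP against PBS, 0 of 6 were called by edgeR (0 at an unadjusted p under 0.05, 0 by DESeq2 and 0 by limma-voom), and in TAA_miR against PBS 2 were, *Hps5* (-0.94) and *Ldha* (0.43). With DESeq2 size factors or library sizes alone, 1 of the 6 was called, lower in TAA_miR, and none higher.

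**Figure D5:**
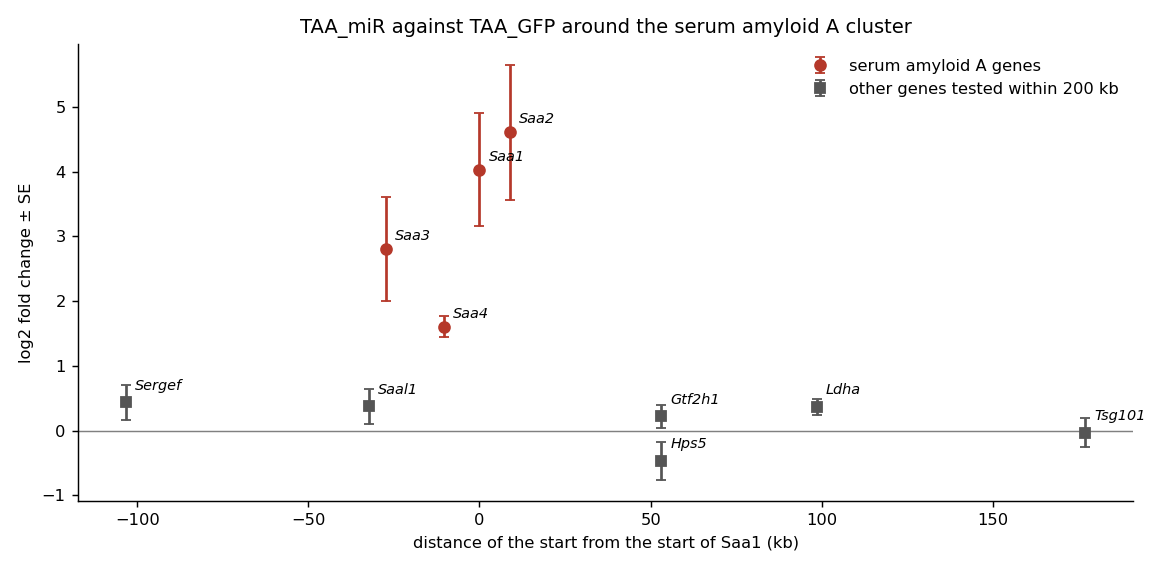
Log2 fold change with SE (vertical axis) of TAA_miR against TAA_GFP by distance of each start from that of *Saa1* in kb (horizontal axis). Circles are the serum amyloid A genes and squares the 6 other genes tested within 200 kb. The circles lie at 1.60 to 4.61 and the squares at -0.47 to 0.44.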

How the data were processed

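Liver RNA of mice was sequenced by 3′ mRNA-seq with single reads in 19 libraries. The authors deposited 1 table of raw counts per gene and library, which was used as deposited. The submitters' processing notes name STAR and mm10, while the STAR version, the gene annotation, the strand option and whether molecular barcodes were counted are not given in the sources used here. Groups came from the labels, which call every library a biological replicate.

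The genes, lists and motifs were chosen with earlier results of these data known. Named genes were the members, list genes that were called or that define a list, genes within 200 kb and the 5 genes most alike by Pearson's r of log2 CPM. Each comparison of 2 groups was fitted over all genes with edgeR 4.0.16 (R 4.3.3), which applied TMM scaling, filterByExpr (minimum count 10, minimum total 15) and the quasi-likelihood test with Benjamini-Hochberg adjustment at 0.05. Log2 fold changes are unshrunk, and SE is the log2 fold change divided by the square root of F. CPM used TMM over all libraries, and log2 CPM a prior count of 2. The fits were tested on simulated data. DESeq2 1.42.0 and limma-voom (limma 3.58.1) were alternatives, as were other scalings and filters, a replicate block, libraries left out and close pairs summed. Intervals (Wilson, 95%) cover counting error only, and reads are not independent molecules if molecular barcodes were not counted. Correlations within TAA_GFP are given as a description without the permutation p that had been planned, since the members were chosen with these values known. Those planned within TAA_miR were not run, because its close pairs leave 4 samples. Saa-ps and the vectors' microRNAs were not analysed here.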

Additional observations from a re-analysis of the deposited data

Results flagged for a closer look

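*Saa4* in PBS 2 was picked out because it lay apart from the other PBS libraries. For such a library, 15 groups of values were examined, of which 0.75 would be flagged by chance. In PBS 2, log2 CPM of *Saa4* was 8.53 against 9.11 in the nearest library, a gap of 0.742 of the range over the 5 libraries. This is a description and not a test, since the member was chosen with its values known and the other 4 PBS libraries form 2 close pairs, so that they are not independent. PBS 2 is the 1 PBS library outside a close pair.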

How the results depend on the processing

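Signs of *Saa4* were the same in every comparison and alternative. Without PBS 1 and 4, TAA_GFP against PBS turned to 0.60 for *Saa1*, 1.76 for *Saa2* and 0.19 for *Saa3*, and TAA_miR against PBS rose to 4.65 for *Saa1* and 6.39 for *Saa2*. TAA_miR against PBS fell to 1.26 for *Saa1* and 2.33 for *Saa2* without TAA_miR 1 and 2, and to 1.35 and 2.17 without PBS 3 and 5. *Saa3* in TAA_miR against PBS turned to -0.25 by limma-voom and to -0.72 without TAA_miR 1 and 2, and against TAA_GFP it was 0.92 and 0.16. Differences of group medians were 6.06, 7.72 and 0.44 for *Saa1*, *Saa2* and *Saa3* against TAA_GFP, and 4.4, 6.46 and 0.24 against PBS. The causes were not tested. Leaving out 1 library gave, for TAA_GFP against PBS, -3.51 to -1.45 (*Saa1*), -3.63 to -1.12 (*Saa2*), -1.15 to -0.52 (*Saa3*) and -1.13 to -0.90 (*Saa4*). For TAA_miR against TAA_GFP it gave 3.76 to 5.51, 4.4 to 6.49, 2.17 to 3.07 and 1.55 to 1.76, and for TAA_miR against PBS 1.72 to 2.59, 2.55 to 3.50, 1.29 to 2.28 and 0.53 to 0.70. In TAA_GFP, leaving out 1 library gave r of 0.206 to 0.941 for *Saa1* and *Saa4*, 0.293 to 0.924 for *Saa2* and *Saa4* and -0.184 to 0.654 for *Saa3* and *Saa4*. The value of -0.184 was without library 5, and 0.941 and 0.924 were without library 3.

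Numbers of genes called in TAA_GFP against PBS, TAA_miR against TAA_GFP and TAA_miR against PBS were 1212, 311 and 2037. They were 2687, 813 and 3839 by limma-voom, 1556, 572 and 2447 by DESeq2, and 227, 87 and 331 with close pairs summed. Library size alone gave 1244, 624 and 2346, with 19.1% of calls higher in TAA_miR than in TAA_GFP against 57.9% with TMM, 31.1% against 55.5% for TAA_miR and PBS, and a median over all genes of -0.20 and -0.13. Without PBS 1 and 4, 271 (TAA_GFP) and 557 (TAA_miR) were called against PBS. Without TAA_GFP 1 and 2, 509 were called against PBS and 137 in TAA_miR. Without TAA_miR 1 and 2, 720 were called against TAA_GFP and 3878 against PBS, without TAA_miR 3 and 4 these were 129 and 802, and without TAA_miR 5 and 7 there were 1352 against PBS. Leaving out 1 library gave 689 to 1859, 209 to 344 and 1267 to 2695. Calls in the 6 lists of signal, factor, partner and acute phase genes, cell type markers not included, were 18, 27 and 37, with 30 in TAA_GFP against PBS by limma-voom, 5, 12 and 13 with close pairs summed, 2 without PBS 1 and 4, 10 and 16 without TAA_GFP 1 and 2, and 22 against PBS without TAA_miR 3 and 4. Leaving out 1 library gave 11 to 24, 23 to 29 and 27 to 38.

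Replicate numbers did not pair the libraries, since same-numbered libraries correlated at -0.284 to 0.277. With the number as a replicate block, 3088, 142 and 922 genes and 32, 17 and 32 list genes were called, and *Saa2* in TAA_miR against TAA_GFP was 6.73.
Depth of 2214073 to 5208405 counts limits what can be said of genes with few counts, such as the cytokines, and *Saa3*, with as few as 36 counts in a library, has the widest counting error of the 4 genes.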
